A study of Mus musculus with 6 samples.

Results

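Mitosis and G2 genes encode the proteins with which a cell that has copied its DNA prepares to divide, condenses and separates its chromosomes and splits. The genes were taken by name from a list of 42 and looked up among the probe sets of the array platform. A probe set is the group of oligonucleotides that measures a transcript, and for every gene the probe set with the highest mean over the 6 arrays was taken. Of the 42 genes, 41 had a probe set assigned to them alone, out of 12393 genes measured, and Espl1 was not analysed here. Those 41 genes were covered by 76 probe sets.

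The samples were CD4+CD25+ cells separated with magnets from mice of the strain C57BL6 to obtain regulatory T cells (Treg), the lineage defined by the transcription factor Foxp3. The wild type group had 3 arrays. The knockout group had 3 arrays from mice labelled fl-DNMT1/Foxp3cre, in which a Cre recombinase tied to Foxp3 acts on a floxed Dnmt1, the gene of the maintenance DNA methyltransferase. The wild type mice are not described as carrying either the floxed allele or the Cre, so effects of those alleles and of the deletion cannot be told apart. The sources used here do not give age, sex or the number of animals behind a sample. The samples of a group are described as independent without naming separate mice, so p-values measure the spread between these samples, which may be technical.

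Most mitotic genes are silent in resting cells and are switched on together late in the cell cycle. The cyclin-dependent kinase Cdk1, bound to cyclins A and B, drives entry into mitosis, and the anaphase-promoting complex ends it by marking cyclins and securin for destruction. Treg are known to divide more often in the steady state than most other CD4+ T cells, and Dnmt1 itself is a gene of dividing cells, since it copies methylation onto newly made DNA. In bulk RNA a smaller share of dividing cells and less RNA per dividing cell cannot be told apart.

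Levels are log2 expression values made with RMA, a method that sets background, normalises the arrays to each other and summarises the probes of a set. Array medians over all probe sets lay between 5.70 and 5.77; with 3 arrays a group, precision is limited by their number. Dnmt1 had levels of 9.56, 9.43 and 9.50 on wild type arrays 1 to 3 and 8.67, 8.89 and 9.34 on knockout arrays 1 to 3. The difference was -0.53 (SE 0.16, limma adjusted p = 0.152). Without knockout array 3 it was -0.72 (limma adjusted p = 0.0434), and with any other array left out it did not pass (adjusted p up to 0.360). The other Dnmt1 probe set had 8.42, 8.62 and 9.17 in the knockout against 9.32 to 9.53 in wild type (difference -0.72, limma adjusted p = 0.113 over all probe sets). The sources used here do not say where the Dnmt1 probes lie relative to the deleted part, so these levels do not check the deletion. Foxp3 had 9.47, 9.51 and 9.51 in wild type and 9.28, 8.82 and 8.43 in the knockout (difference -0.66, limma adjusted p = 0.142). Its difference without knockout array 1 was -0.87 (limma adjusted p = 0.0187), and with any other array left out it did not pass (adjusted p up to 0.339). The 6 T cell markers Cd3e, Cd3g, Cd3d, Cd4, Cd5 and Cd28 were at 8.92 or more on every array. All 6 had a negative difference, 0 being called by limma, and all 6 were below every wild type array on knockout arrays 2 and 3. Their means were 10.93 to 11.00 in wild type and 10.99, 10.66 and 10.65 in the knockout. Neutrophil markers were also present, with a positive difference in 10 of 10 genes and 6 of them called higher by limma (1.33% of all genes). Of these, S100a8, Ngp and S100a9 lost their calls without wild type array 1 or 3, and Ngp and S100a9 also without wild type array 2 (adjusted p up to 0.0970).

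None of the 41 mitosis and G2 genes differed between the groups at an adjusted p under 0.05, 0 being called higher and 0 lower by limma. Over all genes 1.33% were called higher and 0.573% lower. At an unadjusted p under 0.05, 1 of the 41 genes was higher (Racgap1), beside 8.56% of all genes, and 3 were lower (Smc4, Ncapd2 and Pttg1), beside 9.37% of all genes. These counts do not exceed those shares. The difference, knockout minus wild type, was positive in 35 of 41 genes (46.3% of all genes), with a median of 0.16 on the log2 scale beside -0.01 over all genes. Racgap1 alone had knockout values all above the wild type values, where 11.0% of all genes did. Smc4 and Ncapd2 had knockout values all below, where 14.0% of all genes did.

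Most of the positive differences rested on 1 array. The mean level of the 41 genes was 7.46, 7.23 and 7.35 on wild type arrays 1 to 3 and 7.27, 7.20 and 7.996 on knockout arrays 1 to 3. Knockout arrays 1 and 2 thus lay at the lower end of the wild type range or under it, and knockout array 3 lay 0.65 above the wild type mean, a 1.57-fold difference. Knockout array 3 had the highest level of the 6 arrays in 38 of 41 genes, and the exceptions were Smc4, Ncapd2 and Pttg1. That count takes the brightest probe set of each gene. Of the 35 other probe sets of these genes, 23 were highest on knockout array 3. Among them 7, in 6 genes, had a difference opposite in sign to that of the brightest. Over all genes that array was the highest in 15.6%. It exceeded the wild type mean by at least 0.5 in 29 of the 41 genes (5.27% of all genes) and by at least 1 in 6 (1.58% of all genes), whereas 0 genes did so by 0.5 on knockout array 1 or 2. In 33 of the 41 genes both of those arrays lay within 0.3 of the wild type mean. Without knockout array 3 the median difference was -0.08, 14 genes had a positive and 27 a negative difference, and 0 were called.

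**Figure D1:**
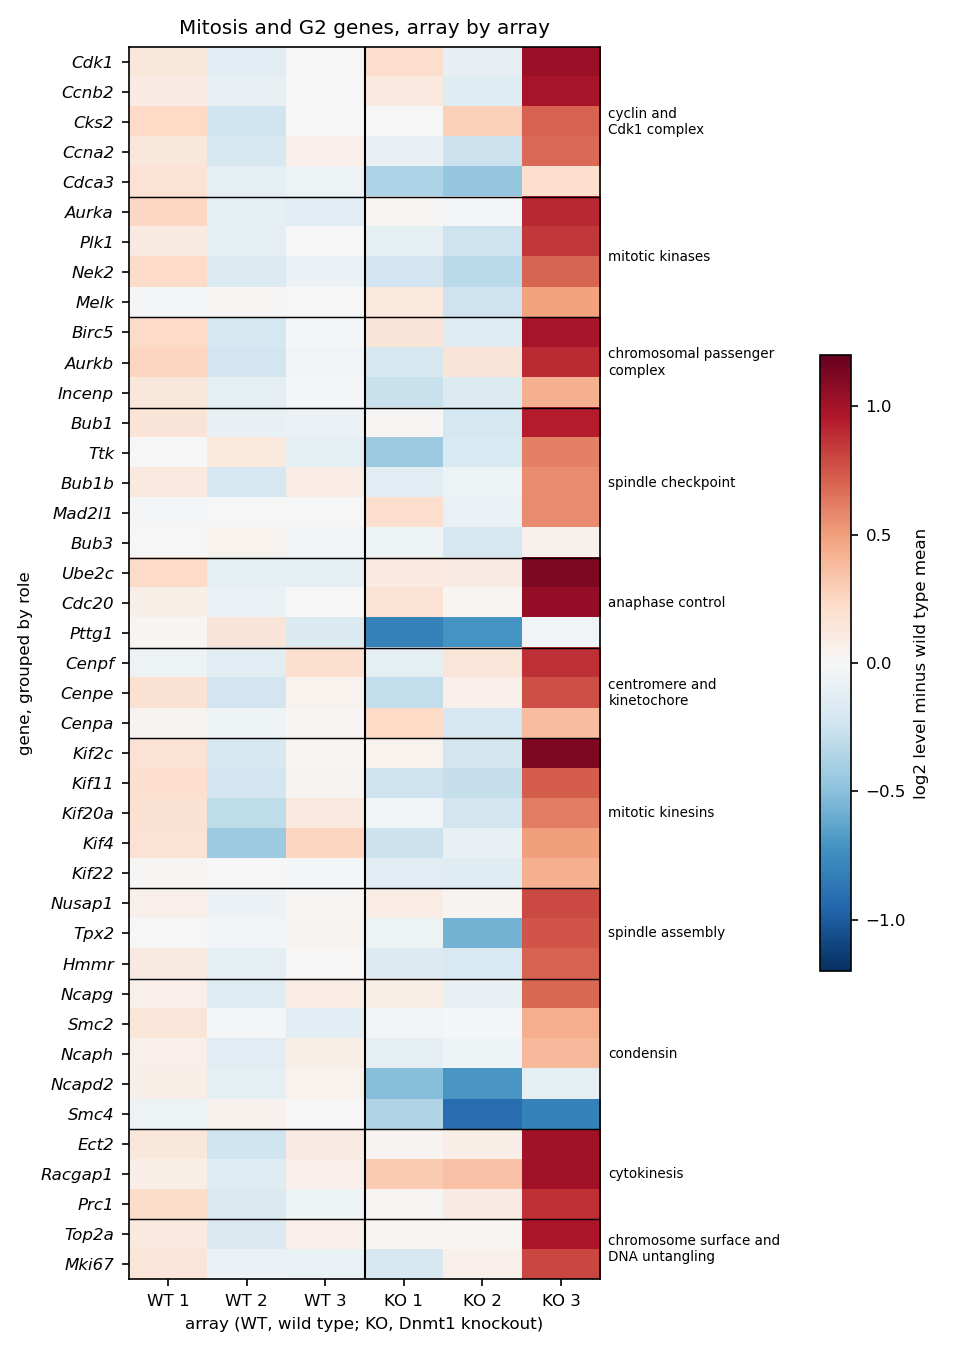
Levels of the 41 mitosis and G2 genes on each array (columns: WT, wild type; KO, Dnmt1 knockout), as log2 level minus the gene's wild type mean, with red for higher and blue for lower and genes grouped by role. The column of knockout array 3 is red for nearly all genes, Smc4 and Ncapd2 being blue and Pttg1 close to the wild type mean, while knockout arrays 1 and 2 lie within 0.3 of the wild type mean in 33 of the 41 genes.

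Several other measures also differed between the knockout arrays. Knockout array 3 had the highest Dnmt1 and the lowest Foxp3 level of the knockout arrays. The mean of 6 Treg markers lay between 9.13 and 9.24 in wild type and was 8.86, 8.61 and 8.32 in knockout arrays 1 to 3. Of these 6 genes Nrp1, Ikzf2 and Il2ra were called lower by limma (0.573% of all genes). Each call was lost without some arrays, wild type arrays 1, 2 and 3 and knockout array 3 among them (limma adjusted p up to 0.185). Markers of red cell precursors had list means of 4.40 to 4.60 in wild type and 4.90, 4.63 and 5.17 in the knockout. Of those 8 markers 7 had a positive difference and 0 were called by limma. At an unadjusted p under 0.05, 2 were higher and 0 lower, beside 8.56% and 9.37% of all genes. Alas2, of haem synthesis, had 6.07, 5.03 and 6.997 in the knockout against 4.24 to 5.01 in wild type (difference 1.52, limma adjusted p = 0.151). With 1 array left out, Alas2 passed only without knockout array 2 (limma adjusted p = 0.0426, otherwise up to 0.375). Slc4a1 had 5.97, 5.87 and 7.09 against 5.05 to 5.31 (difference 1.16, limma adjusted p = 0.110). It passed only without knockout array 3 (limma adjusted p = 0.0420, otherwise up to 0.301). Gata1 was highest on knockout array 1, with 7.83, 6.14 and 6.52 against 6.79 to 6.90. Hba-a1 lay between 3.15 and 3.57 on all arrays. Of the 8 markers 5 were highest on knockout array 3 (15.6% of all genes). Granulocyte precursor markers had means of 5.11, 6.13 and 5.14 on the knockout arrays against 4.17 to 4.22 in wild type. Of these 4 genes 2 were called higher by limma (1.33% of all genes), each call being lost without some arrays (adjusted p up to 0.186). All 4 had knockout values all above the wild type values (11.0% of all genes). Neutrophil markers had means of 8.84, 11.09 and 9.67 against 6.46 to 6.98. Both lists had their highest mean on knockout array 2. The part of these cells in the result was not tested.

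The promoters of these genes share elements that the choice of members did not use. RefSeq promoter windows (GRCm38.p6), of 300 bases with 250 before and 50 after the gene's start, were found for 35 of the 41 genes. Those without a window were Smc4, Aurkb, Kif20a, Ccna2, Tpx2 and Incenp. The windows were searched on both strands for the cell cycle gene homology region (CHR), in the forms TTTGAA and TTCGAA, and for the CCAAT box, CCAAT, which is bound by NF-Y. The CHR is the element bound by the DREAM complex in resting cells and by the MuvB, B-Myb and Foxm1 activators in dividing cells. Adjacent matches may share letters. A CHR form was found in 26 of 35 genes (74.3%) beside 17.3% of 9887 measured genes with a window, and a CCAAT box in 28 (80.0%) beside 42.3%. Both were found in 25 genes (71.4%) beside 6.88%, and at least 2 CCAAT boxes in 20 (57.1%) beside 15.5%. On knockout array 3 the median deviation from the wild type mean was 0.81 in the 25 genes with both elements and 0.70 in the other 10. A match is a description of the letters and not a measured binding site.

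The following promoters belong to the 4 genes with the lowest p that hold both elements. Each is the 250 bases before the start, 5′ to 3′ on the strand of the gene, with matches in capitals (ATTGG and TTCAAA are matches on the opposite strand). Racgap1 lies at chr15:99651657-99651906 on the minus strand, Ncapd2 at chr6:125191587-125191836 on the minus strand, Cdc20 at chr4:118437344-118437593 on the minus strand and Ube2c at chr2:164769679-164769928 on the plus strand (GRCm38.p6). Positions are counted from the gene's start, with negative numbers before it. The CHR of Racgap1 begins at position 6 and is not in the stretch shown.
Racgap1: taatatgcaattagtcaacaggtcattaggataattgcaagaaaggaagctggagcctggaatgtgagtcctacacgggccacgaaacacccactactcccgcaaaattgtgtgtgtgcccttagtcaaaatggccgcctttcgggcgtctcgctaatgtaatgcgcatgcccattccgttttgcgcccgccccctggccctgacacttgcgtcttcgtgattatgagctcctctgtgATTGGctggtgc
Ncapd2: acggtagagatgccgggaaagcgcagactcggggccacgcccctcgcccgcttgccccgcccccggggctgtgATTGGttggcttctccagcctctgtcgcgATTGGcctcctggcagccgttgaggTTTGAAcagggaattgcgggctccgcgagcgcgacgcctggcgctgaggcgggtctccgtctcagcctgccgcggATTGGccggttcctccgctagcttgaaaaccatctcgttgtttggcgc
Cdc20: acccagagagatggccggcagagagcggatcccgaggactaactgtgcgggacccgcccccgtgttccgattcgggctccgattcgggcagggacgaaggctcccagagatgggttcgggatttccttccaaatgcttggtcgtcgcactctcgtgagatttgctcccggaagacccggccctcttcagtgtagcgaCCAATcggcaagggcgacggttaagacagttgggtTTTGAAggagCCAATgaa
Ube2c: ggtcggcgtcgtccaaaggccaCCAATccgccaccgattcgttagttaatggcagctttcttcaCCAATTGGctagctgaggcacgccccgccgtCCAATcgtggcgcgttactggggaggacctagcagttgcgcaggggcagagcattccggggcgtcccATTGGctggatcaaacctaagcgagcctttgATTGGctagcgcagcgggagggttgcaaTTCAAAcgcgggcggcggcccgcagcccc
The CHR began at position -18 in Cdc20, -29 in Ube2c and -123 in Ncapd2. The CCAAT box nearest to it began at -8 in Cdc20, -57 in Ube2c and -148 in Ncapd2. Whether these positions relate to the levels was not tested.

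Among the genes of the Cdk1 complex, Cdk1, the kinase that triggers mitosis, had levels of 7.48, 7.22 and 7.34 in wild type and 7.56, 7.25 and 8.38 in the knockout. Knockout array 3 stood apart and the other knockout arrays were close to the wild type values (difference 0.38, 95% interval -0.23 to 0.99, limma adjusted p = 0.499). Cks2, a small subunit that helps Cdk1 engage its substrates, had 9.80, 9.32 and 9.57 in wild type and 9.57, 9.85 and 10.27 in the knockout (difference 0.33, interval -0.12 to 0.78, adjusted p = 0.420). Its groups overlapped, and its other probe set gave the same picture with a difference of 0.31. The mitotic cyclin genes Ccnb2 and Ccna2 were 0.99 and 0.68 above the wild type mean on knockout array 3, and their differences were 0.32 and 0.11. Cdca3, which takes part in the destruction of the mitosis inhibitor Wee1, had a negative difference of -0.21, with knockout arrays 1 and 2 at 6.63 and 6.53, both under the wild type range of 6.88 to 7.17. Knockout array 3 was at 7.20.

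Genes of anaphase control had differences of both signs, and none was called. Cdc20, which activates the anaphase-promoting complex, had 8.09, 7.94 and 8.02 in wild type and 8.19, 8.04 and 9.07 in the knockout (difference 0.42, interval -0.16 to 0.99, limma adjusted p = 0.424). Ube2c, the ubiquitin-conjugating enzyme of that complex, had 8.85, 8.50 and 8.51 in wild type and 8.74, 8.72 and 9.74 in the knockout (difference 0.45, interval -0.18 to 1.08, adjusted p = 0.438). In both genes knockout array 3 stood well above the wild type values, and the other knockout arrays did not. Pttg1, which encodes securin, the inhibitor of separase, had 10.90, 11.03 and 10.70 in wild type and 10.06, 10.16 and 10.84 in the knockout, so that here knockout arrays 1 and 2 were low and array 3 was within the wild type range (difference -0.52, interval -0.997 to -0.05, adjusted p = 0.242). Without knockout array 3 its difference was -0.76 (adjusted p = 0.0514). The probe sets of Pttg1 disagreed. The next brightest had a difference of 0.25, its knockout values of 8.66, 8.60 and 8.77 lying all above the wild type values of 8.34 to 8.56, and the dimmest had a difference of -0.12 (limma adjusted p = 0.237 and 0.637 over all probe sets). The direction of Pttg1 is therefore uncertain.

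The clearest difference was in a single gene of condensin, the ring complex that compacts mitotic chromosomes. Smc4, one of its ATPase subunits, had levels of 11.73, 11.84 and 11.80 in wild type and 11.43, 10.88 and 10.98 in the knockout, and all knockout values lay below all wild type values. The difference was -0.70 (SE 0.14, interval -1.03 to -0.36, a 1.62-fold lower level), which missed the threshold over all genes (limma adjusted p = 0.0620). The other 2 Smc4 probe sets fell and passed when all 22690 probe sets were tested, of which 0.485% were called lower and 1.19% higher. One went from 11.26 ± 0.10 to 10.50 ± 0.21 (SD, n = 3; difference -0.76, limma adjusted p = 0.0275) and the other from 10.73 ± 0.05 to 9.86 ± 0.15 (difference -0.87, adjusted p = 0.0107). In each of the 3 probe sets the knockout values were below the wild type values, with 10.72, 10.31 and 10.46 in the first of this pair and 10.03, 9.78 and 9.77 in the second. Knockout array 3, the highest for most other mitotic genes, was among the low ones for Smc4. The Smc4 difference ranged from -0.86 to -0.59 as each array was left out, and passed only without knockout array 1 (adjusted p = 0.00619, otherwise up to 0.214). Smc4 was also called under 5 of the other settings tried, among them the mean of its probe sets (difference -0.77, limma adjusted p = 0.0196).

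Ncapd2, a regulatory subunit of condensin I, had 7.88, 7.70 and 7.85 in wild type and 7.29, 7.11 and 7.69 in the knockout, all knockout values being lower, though knockout array 3 missed the wild type range by little (difference -0.44, interval -0.79 to -0.10, limma adjusted p = 0.184). Without knockout array 3 its difference was -0.61 (adjusted p = 0.0629). The other condensin genes had positive differences that did not pass the test. Smc2, the partner of Smc4, had a difference of 0.13, Ncapg of 0.23 and Ncaph of 0.08, with adjusted p between 0.585 and 0.817 and each with its highest value on knockout array 3. The condensin II genes Ncapg2 and Ncaph2, which are not among the 42, had differences of 0.22 and 0.06.

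**Figure D2:**
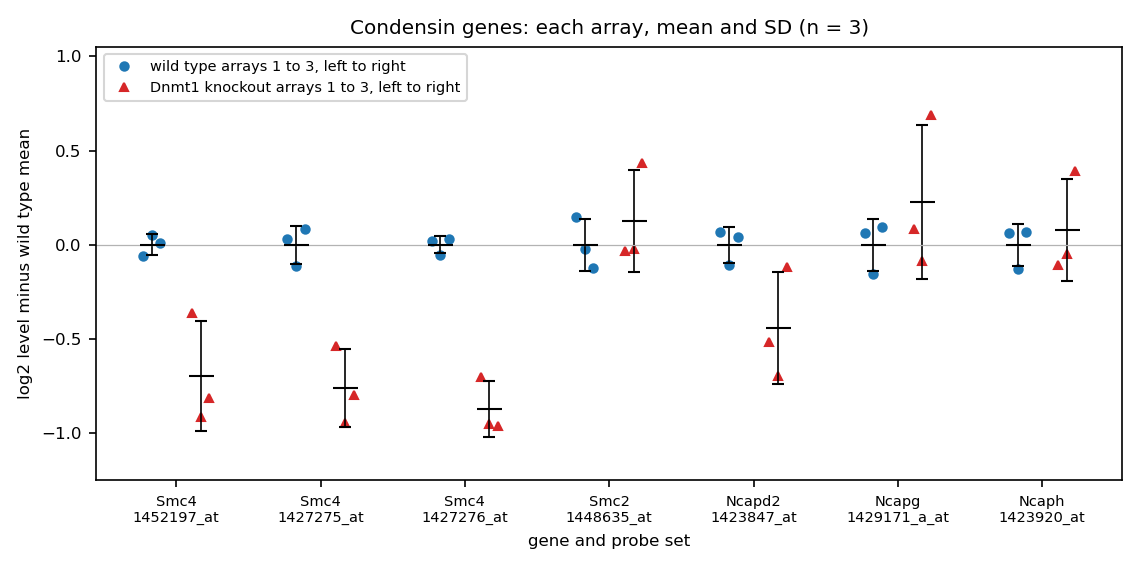
Condensin genes on each array, as log2 level minus the wild type mean of the same probe set (vertical axis), for the 3 Smc4 probe sets and the brightest probe set of Smc2, Ncapd2, Ncapg and Ncaph. Blue circles are wild type and red triangles knockout arrays 1 to 3 from left to right, and black marks give the mean and SD; the knockout values of Smc4 lie below all wild type values in each of its probe sets.

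Among the cytokinesis genes was the member with the largest positive difference, Racgap1. This gene, which encodes a GTPase-activating protein of the central spindle, had 7.03, 6.80 and 7.01 in wild type and 7.26, 7.29 and 7.95 in the knockout. All of its knockout values were above the wild type values, those of arrays 1 and 2 by 0.32 and 0.35 over the wild type mean, without passing the test (difference 0.56, interval 0.12 to 0.99, limma adjusted p = 0.182). Without knockout array 3 the difference was 0.33 (adjusted p = 0.214). Its other probe set overlapped between the groups, with a difference of 0.31. Ect2, the RhoA activator that Racgap1 recruits, had 5.30, 4.92 and 5.26 in wild type and 5.19, 5.24 and 6.17 in the knockout (difference 0.37, adjusted p = 0.498). Prc1, which bundles the microtubules of the central spindle, had a difference of 0.33, and in Ect2 and Prc1 only knockout array 3 was above the wild type range.

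Spindle and kinetochore genes were high on knockout array 3. Nusap1, a microtubule-binding protein of the spindle, had 7.85, 7.71 and 7.80 in wild type and 7.87, 7.82 and 8.57 in the knockout (difference 0.30, interval -0.15 to 0.75, limma adjusted p = 0.463). Tpx2, which activates Aurora A, and Hmmr, a spindle-associated hyaluronan receptor, were 0.76 and 0.71 above the wild type mean on that array, and Tpx2 on knockout array 2 was 0.57 below it. The kinesin genes Kif2c, Kif11, Kif20a, Kif4 and Kif22 were between 0.43 and 1.12 above the wild type mean on knockout array 3, Kif2c being the highest, while their differences between the groups were 0.05 to 0.31. Cenpf, Cenpe and Cenpa, of the centromere and kinetochore, were 0.37 to 0.88 above it there.

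Among the spindle checkpoint genes, Mad2l1, which holds back Cdc20 until chromosomes are attached, had 8.17, 8.20 and 8.20 in wild type and 8.40, 8.11 and 8.75 in the knockout (difference 0.23, interval -0.12 to 0.59, limma adjusted p = 0.474). Its wild type values were close to each other and its knockout values lay on both sides of them. The kinase genes Bub1 and Ttk and the pseudokinase gene Bub1b were 0.94, 0.61 and 0.57 above the wild type mean on knockout array 3, with differences of 0.25, -0.0028 and 0.13. Bub3, an adaptor of the checkpoint, had the smallest SD between knockout arrays, with 10.14, 10.19 and 10.11 in wild type and 10.09, 9.94 and 10.20 in the knockout. The mitotic kinase genes Aurka, Plk1, Nek2 and Melk were 0.48 to 0.90 above the wild type mean on that array. In the chromosomal passenger complex, which corrects faulty attachments, Birc5 (survivin) and Aurkb were 0.99 and 0.90 above it and Incenp 0.43. The limma adjusted p of these 7 kinase and passenger genes ranged from 0.570 to 0.998.

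The common proliferation markers were also highest on knockout array 3. Mki67, whose protein Ki-67 coats mitotic chromosomes, had 9.62, 9.40 and 9.40 in wild type and 9.28, 9.53 and 10.28 in the knockout (difference 0.22, interval -0.33 to 0.77, limma adjusted p = 0.671). Top2a, the topoisomerase that untangles sister DNA molecules, had 9.28, 8.998 and 9.23 in wild type and 9.20, 9.19 and 10.14 in the knockout (difference 0.34, interval -0.24 to 0.92, adjusted p = 0.521). Both overlapped between the groups, and both had knockout array 3 as the high one. Without it the Mki67 difference was -0.07 and the Top2a difference 0.03.

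**Figure D3:**
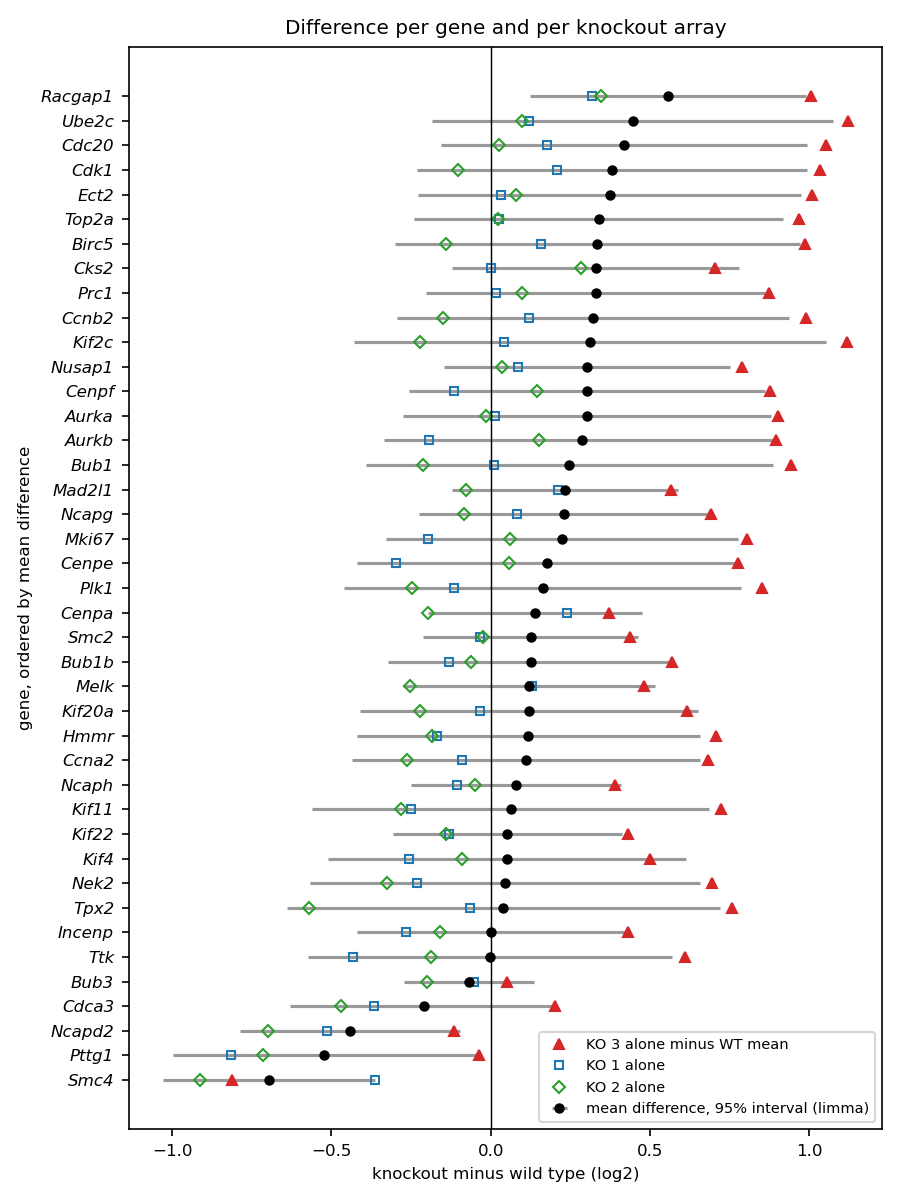
Knockout minus wild type difference in log2 level for each of the 41 genes (black points, with grey bars for 95% intervals from limma), with each knockout array's own difference from the wild type mean (open blue squares for array 1, open green diamonds for array 2, red triangles for array 3). The intervals exclude 0 only for Racgap1, Ncapd2, Pttg1 and Smc4, none of which passed adjustment over all genes, and the red triangles lie to the right of the other knockout arrays in all genes but Smc4.

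The spread between knockout arrays was larger than between wild type arrays in 41 of 41 genes, as it was in 62.7% of all genes. The median SD of the 41 genes was 0.14 between wild type arrays and 0.50 between knockout arrays, a ratio of 3.68. Over all genes these medians were 0.09 and 0.12, a ratio of 1.31, and 3.15% of all genes had a knockout SD as large as the median of the mitotic genes. The SD between knockout arrays ran from 0.13 in Bub3 to 0.71 in Kif2c. Since limma pools the spread of both groups, this spread widens the intervals given above.

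**Figure D4:**
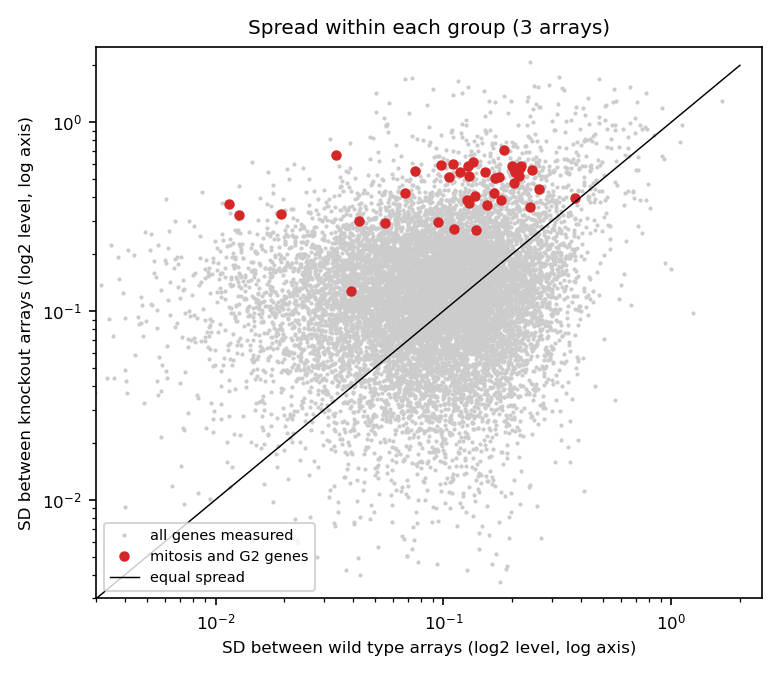
Standard deviation of log2 levels between the 3 wild type arrays (horizontal, log axis) and between the 3 knockout arrays (vertical, log axis), grey for all genes measured and red for the 41 mitosis and G2 genes. All red points lie above the line of equal spread, with medians of 0.14 and 0.50.

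The same array stood out in other genes of the cell cycle. Of 50 measured genes of a second list of G2 and mitosis, with 78 names, knockout array 3 was the highest of the 6 in 44, and the list means were 6.64, 6.49 and 6.59 in wild type and 6.57, 6.55 and 7.11 in the knockout. Of these 50 genes 1 rose and 0 fell by limma over all genes, beside 1.33% and 0.573% of all genes. At an unadjusted p under 0.05, 5 were higher and 0 lower, where 8.56% of all genes were higher and 9.37% lower. The gene that rose was Psrc1, encoding a spindle protein, with 4.90, 5.26 and 4.94 in wild type and 5.92, 5.74 and 6.09 in the knockout (difference 0.88, SE 0.13, limma adjusted p = 0.0243). All 3 knockout arrays were above wild type in Psrc1, and its call was lost without wild type array 1, wild type array 3 or knockout array 3 (adjusted p 0.107, 0.127 and 0.0620) and with the mean of its probe sets (difference 0.37, adjusted p = 0.104). Ccnb1, encoding cyclin B1, was not analysed here. Of 45 measured genes of DNA replication and S phase 0 were called by limma, knockout array 3 was the highest in 37, and the list means were 7.94, 7.80 and 7.86 in wild type and 7.89, 7.74 and 8.23 in the knockout. The lowest p were those of the polymerase subunit gene Pole2 (difference 0.33, adjusted p = 0.149) and the single-strand binding protein gene Rpa2 (0.26, adjusted p = 0.259). At an unadjusted p under 0.05, 2 of the 45 S phase genes were higher and 0 lower, beside 8.56% and 9.37% of all genes.

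The transcription factors that act on such genes had SDs of 0.02 to 0.46 between knockout arrays, with a median of 0.12. Of 12 measured regulators 0 were called by limma. At an unadjusted p under 0.05, 0 were higher and 1 lower, beside 8.56% and 9.37% of all genes. Of the 12, 5 were highest on knockout array 3 (15.6% of all genes). Foxm1, an activator of G2 and mitosis genes, had 6.19, 6.04 and 6.13 in wild type and 6.08, 6.08 and 6.15 in the knockout, with no array apart. This was the brightest of its 4 probe sets, and the others are not described here. Mybl2, which encodes B-Myb, had 6.01, 5.50 and 5.83 in wild type and 5.63, 5.46 and 6.30 in the knockout. E2f8 had 6.82, 6.48 and 6.54 in wild type and 6.44, 6.74 and 7.34 in the knockout. On knockout array 3 Mybl2 and E2f8 were 0.52 and 0.73 above the wild type mean. The lowest p were those of Myc (difference -0.36, limma adjusted p = 0.120) and E2f3 (0.21, adjusted p = 0.347). With 1 array left out, Myc passed only without knockout array 1 (limma adjusted p = 0.0461, otherwise up to 0.336).

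**Figure D5:**
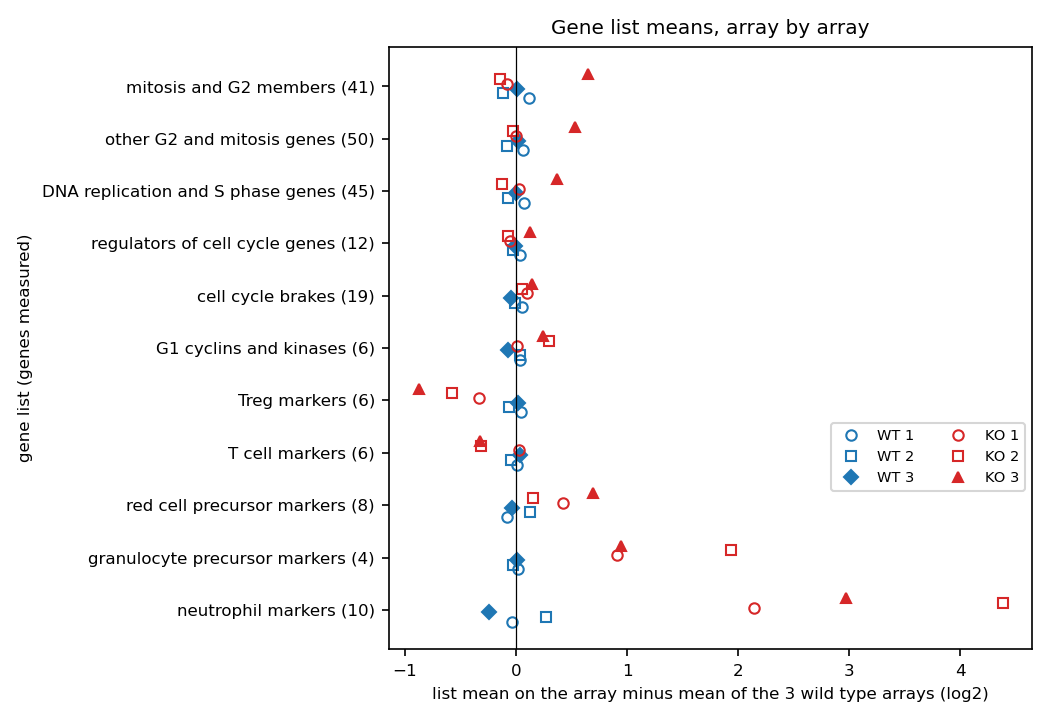
Mean log2 level of each gene list on each array, relative to the mean of the 3 wild type arrays (blue symbols wild type, red symbols knockout, the filled red triangle being knockout array 3), with the number of genes measured in brackets. Knockout array 3 is the highest for the lists of mitosis, other G2 and S phase genes (0.65 for the 41 mitosis and G2 genes), and also for regulators, cell cycle brakes and red cell precursor markers, and is the lowest for Treg and T cell markers, while neutrophil and granulocyte precursor markers are highest on knockout array 2. By gene, the median difference of knockout array 3 from the wild type mean was -0.05 in the brakes and 0.01 in the regulators.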

How the data were processed

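RNA of 6 samples was labelled with biotin and measured on 1-colour arrays, per the labels. Each deposited value is a probe set's log2 expression; the submitters' processing notes name RMA, without version or settings. RMA compresses differences at low levels and puts the arrays on a common distribution. Of 22690 probe sets, 20380 had 1 gene symbol in the platform annotation and were used, 691 had several and 1555 had none. Probe sets whose names mark shared probes can read related transcripts.

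Samples were grouped by their titles. Groups were compared with limma 3.58.1 (lmFit, eBayes) in R 4.3.3 over 12393 genes, with Benjamini-Hochberg adjustment and a threshold of 0.05; tests are two-sided, differences are knockout minus wild type, and intervals are 95%. The fit was tested on simulated data. Members and lists were chosen with earlier results of these data known. The rule for named genes took the 10 members with the lowest p, the brightest member (Smc4), Mki67, Top2a and Cdk1, of each other list up to 3 called genes or the 2 with the lowest p, and Dnmt1, Foxp3 and Ccnb1. Values per array are given for those members and for Dnmt1 and Foxp3; Ccnb1 was not analysed here, and of the other named genes a selection is described. Genes named beyond this rule were chosen after their values were seen. Replicate numbers did not pair the samples. Alternatives were other normalisations, probe set choices, a dim-gene filter, variance models, a replicate block, a size threshold of 0.5 and leaving out each array. Figures were drawn with matplotlib 3.10.9.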

Additional observations from a re-analysis of the deposited data

How the results depend on the processing

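Of the 41 mitosis and G2 genes, 0 were called higher under every alternative run. The count called lower was 1, Smc4, without the dimmest 40% of genes, with the mean or the most variable of a gene's probe sets, with a variance trend and with array weights, and 0 to 1 with each array left out, the call being made without knockout replicate 1. The number of members with a positive difference was 14 to 36 with an array left out, the lowest without knockout replicate 3, where the median difference was also negative (-0.08, otherwise 0.11 to 0.31 over all alternatives). Over all genes, 165 were higher and 71 lower; leaving out 1 array gave 17 to 358 and 3 to 186, and array weights gave 110 lower. A replicate block gave 112 higher and 35 lower genes, but the numbers share only a label: correlations of same-numbered deviations were -0.08, 0.15 and -0.04, and the block called 0 members. Among the other named genes it ended the calls of Psrc1, Cdkn2d, Ikzf2, Il2ra and the granulocyte precursor markers Mpo and Prtn3 (adjusted p 0.0640, 0.0756, 0.0640, 0.0570, 0.0642 and 0.0510). With an array left out the Mki67 difference was -0.068 to 0.43 (lowest without knockout replicate 3) and that of the thymocyte marker Rag1 -0.050 to 0.27 (lowest without knockout replicate 2); no other gene taken by the rule for named genes changed sign, which says nothing of the members outside that rule. The cause was not tested. With 3 arrays a group and a knockout SD near 0.50, most members' 95% intervals include 0.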

Other observations

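Of 19 measured genes that act as cell cycle brakes, 4 were highest on knockout array 3 (15.6% of all genes), and 10 had a negative difference. At an unadjusted limma p under 0.05, 4 of the 19 were higher and 0 lower, beside 8.56% and 9.37% of all genes. Of the 19, 1 rose by limma over all genes, beside 1.33% of all genes. This was Cdkn2d, which encodes the Cdk4 and Cdk6 inhibitor p19Ink4d. It had 8.99, 9.06 and 9.02 in wild type and 9.69, 9.62 and 9.42 in the knockout (difference 0.55, limma adjusted p = 0.0330), so that knockout array 3 was the lowest of the knockout arrays. Its call was lost without wild type array 1, 2 or 3 and without knockout array 2 (adjusted p up to 0.151). Cdkn1a, encoding p21, had 6.34, 6.52 and 6.08 in wild type and 6.58, 7.44 and 7.22 in the knockout (limma adjusted p = 0.140). Cdkn2b had 3.98 to 4.46 in wild type and 4.97, 4.56 and 5.10 in the knockout (difference 0.65, limma adjusted p = 0.112). Cdkn2a had 3.63 to 4.27 in wild type and 4.39, 4.66 and 5.79 in the knockout (difference 0.98, limma adjusted p = 0.207). Cdkn2a and Cdkn2b were both highest on knockout array 3. Of 6 genes of cyclins and kinases of G1, 0 were called by limma. At an unadjusted p under 0.05, 2 were higher and 0 lower, beside 8.56% and 9.37% of all genes. The 2 higher genes were Cdk6 (difference 0.59, limma adjusted p = 0.142) and Ccnd3 (0.37, adjusted p = 0.212), both highest on knockout array 2. With 1 array left out, both passed only without knockout array 1 (limma adjusted p = 0.0111 and 0.0363, otherwise up to 0.346 and 0.423).

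The wild type arrays also shared an order. Wild type array 2 was the lowest of the 3 wild type arrays in 31 of the 41 mitosis and G2 genes, beside 33.1% of all genes, and the order of arrays 1, 3 and 2 from high to low was seen in 26 of 41 genes (63.4%) beside 16.3% of all genes. The genes share their arrays, and no test was made of this.

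Of the other lists of cell type markers, monocyte and macrophage markers had 1 of 7 called higher by limma (Cd14) and CD8 and NK cell markers 1 of 7 (Ncr1), beside 1.33% of all genes. These calls were lost without wild type array 1, 2 or 3 and, for Ncr1, without knockout array 3 (limma adjusted p up to 0.121). None of 7 B cell and plasma cell markers, 6 T cell markers and 5 thymocyte markers was called (0 in each). At an unadjusted limma p under 0.05, 1 T cell marker was lower and 0 others differed, where 8.56% of all genes were higher and 9.37% lower.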
